A study of Mus musculus with 60 samples.

Results

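The collagen chain genes are the genes whose products assemble, 3 chains at a time, into the collagens. They were taken by name: every gene of the array's annotation with a symbol made of Col, a number, the letter a and a number, which gave 41 of 19057 named genes, carried by 91 of 45281 probes. Each gene is represented by its brightest probe, and all 41 of these passed the filter on low signals. The study asked how single doses of NMDA receptor antagonists alter mRNA abundance in the mouse striatum over time. Adult male C57BL/6J mice, 8 to 10 weeks old, received 1 intraperitoneal injection and were killed 1, 2, 4 or 8 h later. The injection held saline or 1 of 3 drugs, which were ketamine at 20 mg/kg, memantine at 15 mg/kg and phencyclidine, here PCP, at 5 mg/kg. Naive mice, without injection, were taken at the same times. The 5 treatments and 4 times formed 20 groups of 3 Illumina MouseWG-6 v2 arrays, 60 in all, and each array held RNA pooled from 2 mice. Values are log2 intensities, differences are log2 differences with their standard error (SE), and a difference passed the test when its adjusted p in limma (Benjamini-Hochberg over 44236 probes) was under 0.05. The drug factor averages the 4 differences between a drug and the saline arrays of its own time (12 arrays against 12). The 3 drugs were given at different doses and share their saline arrays, so their values are set side by side and not compared.

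A collagen is a triple helix of 3 chains with glycine repeated along each chain. Fibrillar chains form the fibres of connective tissue, network chains form sheets, of which collagen IV is the scaffold of basement membranes, and the other classes decorate fibrils, form beaded filaments or span the cell membrane. The brain parenchyma holds little fibrillar collagen, and its collagens are known mainly from the basement membranes of blood vessels, from the leptomeninges with their fibroblasts and from the choroid plexus. The 41 genes comprised 11 fibrillar, 6 basement membrane network, 6 collagen VI and VI-like, 7 fibril-associated, 4 transmembrane, 3 short-chain network, 2 multiplexin and 2 other chains.

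The 2 chains of the common collagen IV molecule are encoded by genes placed head to head on chromosome 8, and their promoter windows are shown because these genes moved together across the arrays. A window runs from 250 bases before to 50 bases after the gene's start (RefSeq, build GRCm38.p6). Capitals mark matches, on either strand, to the CCAAT motif, to GGGCGG (the core of the GC box) and to the TATAAA motif, none of which overlapped another in these windows. The window of Col4a1 is chr8:11312777-11313076 on the minus strand and that of Col4a2 is chr8:11312555-11312854 on the plus strand.
Col4a1: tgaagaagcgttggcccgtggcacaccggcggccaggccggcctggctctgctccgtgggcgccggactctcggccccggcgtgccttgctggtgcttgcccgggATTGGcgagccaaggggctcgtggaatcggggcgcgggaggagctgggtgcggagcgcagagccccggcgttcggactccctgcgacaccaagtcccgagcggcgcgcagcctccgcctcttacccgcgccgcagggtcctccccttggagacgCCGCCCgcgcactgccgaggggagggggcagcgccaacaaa
Col4a2: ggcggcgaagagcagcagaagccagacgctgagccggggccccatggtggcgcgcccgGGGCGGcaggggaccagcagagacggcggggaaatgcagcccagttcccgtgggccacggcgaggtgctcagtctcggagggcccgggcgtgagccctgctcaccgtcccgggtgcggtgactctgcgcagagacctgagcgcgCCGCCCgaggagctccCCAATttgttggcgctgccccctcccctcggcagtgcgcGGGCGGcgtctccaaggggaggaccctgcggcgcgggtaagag
The windows share 78 bases (chr8:11312777-11312854), which are the last 78 of each as printed and hold 1 GGGCGG match, the same site read from opposite strands. Guanine and cytosine made up 74.0% of the Col4a1 window and 73.7% of the Col4a2 window. Of the 41 genes, 33 had an entry, with 36 windows in all. GGGCGG or its complement was present in 23 of the 36 windows (63.9%) and in 35.7% of all 32851 windows, CCAAT in 36.1% and 37.4%, and TATAAA in 13.9% and 13.6%. The median guanine and cytosine content was 60% in the collagen windows and 52.7% in all windows. These are matches of letters, not sites shown to be bound.

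Col18a1, the gene on which most calls below rested, has 2 annotated starts on the minus strand of chromosome 10. They are shown because the start that each of the 3 Col18a1 probes reads was not placed here. The upstream window is chr10:77166481-77166780 and the downstream one chr10:77113656-77113955.
Col18a1 upstream: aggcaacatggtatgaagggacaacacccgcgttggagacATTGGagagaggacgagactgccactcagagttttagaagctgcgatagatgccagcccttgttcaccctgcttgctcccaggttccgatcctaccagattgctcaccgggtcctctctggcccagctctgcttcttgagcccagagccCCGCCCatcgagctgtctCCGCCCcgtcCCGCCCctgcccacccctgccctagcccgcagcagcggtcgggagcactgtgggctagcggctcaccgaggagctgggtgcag
Col18a1 downstream: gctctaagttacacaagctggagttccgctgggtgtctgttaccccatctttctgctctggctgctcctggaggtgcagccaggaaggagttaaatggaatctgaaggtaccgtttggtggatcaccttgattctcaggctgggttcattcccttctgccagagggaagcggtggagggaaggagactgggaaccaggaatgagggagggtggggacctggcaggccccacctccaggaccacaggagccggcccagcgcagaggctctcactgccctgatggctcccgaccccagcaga
The upstream window held 3 GGGCGG matches and 1 CCAAT match, all on the reverse strand, and 63.3% guanine and cytosine. The downstream window held no match to the 3 motifs and 59.7% guanine and cytosine.

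Over all 60 arrays, 7 of the 41 probes lay above the array's median signal on every array: Col4a1 and Col4a2, the multiplexin Col18a1, Col6a1 of the beaded filaments, the fibril-associated Col16a1, the transmembrane Col23a1 and Col26a1. Their values in the 12 naive arrays ran from 8.87 to 9.56 for Col4a1, from 8.64 to 9.43 for Col4a2, from 8.37 to 9.07 for Col18a1 and from 9.93 to 10.58 for Col6a1. Those of Col16a1 ran from 9.73 to 10.36, those of Col23a1 from 7.47 to 8.38 and those of Col26a1 from 8.25 to 8.70. Genes of the interstitial fibres were dim: Col1a1, which with Col1a2 makes collagen I, was above the array median on 3 arrays and Col3a1, the chain of collagen III in vessel walls, on 16, while Col1a2 was so on 51. The probe of Col6a5 was above it on 0 arrays. A dim probe on these arrays cannot be told from an absent transcript, since the files hold no detection p. Within groups the median SD was 0.33 over the 41 genes and 0.30 over all probes tested.

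Some features of the arrays touch every result below. The mean correlation of an array with the others ran from 0.936 to 0.971, and the 3 lowest were saline arrays: replicates 3 (0.936) and 1 (0.941) of saline 4 h and replicate 3 of saline 1 h (0.945). The first of these also had the highest median signal, 646 intensity units against 167 to 439 in the others. As recorded for the samples, each of the 10 BeadChips carried 6 arrays at positions A to F. Treatment followed recorded position: ketamine was at A or B, memantine at B or C, naive at C or D, PCP at D or E, and saline at E or F on all 12 of its arrays. On each BeadChip this order was also the alphabetical order of the sample titles. Whether it is the order of hybridization could not be checked, and the paper describes the samples as balanced over plates and batches. As recorded, position and treatment were strongly but not fully confounded. With position as a term beside the 20 groups, the PCP comparisons and saline against naive at 4 and 8 h could be fitted, while ketamine and memantine against saline could not be told apart from position except in an additive fit of treatment, time and position. Both fits were added after the data were seen. All 8 measured genes of striatal projection neurons (Drd1 and Drd2 among them) were above the array median on all 60 arrays, which does not measure how even the dissection was. Relative to the naive arrays, their mean was lowest on replicate 2 of ketamine 2 h, at -0.895. On that array the marker lists described below had means of 0.854 (cortical projection neurons), 0.763 (fibroblasts) and 1.42 (choroid plexus).

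At 4 h, 1 of the 41 collagen genes passed the test with each drug, and it was Col18a1 in all 3 comparisons. Col18a1 encodes the chain of collagen XVIII, a basement membrane collagen that carries heparan sulfate and whose last part is released as endostatin. Its level was 7.55, 8.19 and 7.59 in the 3 saline arrays at 4 h. With ketamine it was 9.14, 8.70 and 8.88. With memantine it was 8.73, 8.94 and 8.96, and with PCP 8.75, 8.75 and 9.05. All 9 drug arrays lay above all 3 saline arrays. Groups without overlap at 4 h, in either direction, were found for 9.96% of all probes with ketamine, 11.7% with memantine and 9.99% with PCP. The difference was 1.13 with ketamine (SE 0.20, adjusted p = 0.0102), 1.10 with memantine (adjusted p = 0.00607) and 1.07 with PCP (adjusted p = 0.0356), about 2.1 to 2.2 times the saline level. Among all probes, 0.0746% passed with ketamine at 4 h, 0.721% with memantine and 0.0226% with PCP.

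The saline arrays, not the drug arrays, stood apart at that time. The naive arrays at 4 h had Col18a1 levels of 9.07, 8.89 and 8.93, in the range of the drug arrays. Saline against naive at 4 h gave a difference of -1.18 (SE 0.20, adjusted p = 0.0125), the 1 member that passed where 0.26% of all probes did. Set against the naive arrays of the same time, ketamine differed by -0.05, memantine by -0.08 and PCP by -0.11, and none of these passed. At 1 h, saline gave 8.48, 8.84 and 7.88, and at 2 and 8 h its 6 arrays lay between 8.44 and 9.04. The low value at 1 h and the lowest pair at 4 h came from the 3 arrays of lowest correlation. Over the 4 times within saline, Col18a1 was the 1 member past the test (F = 10.6, adjusted p = 0.0303, with 0.199% of all probes passing), whereas time within the naive arrays gave 0 members in limma (0% of probes, and 3 members with an unadjusted p under 0.05, beside 2.26% of all probes).

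**Figure D1:**
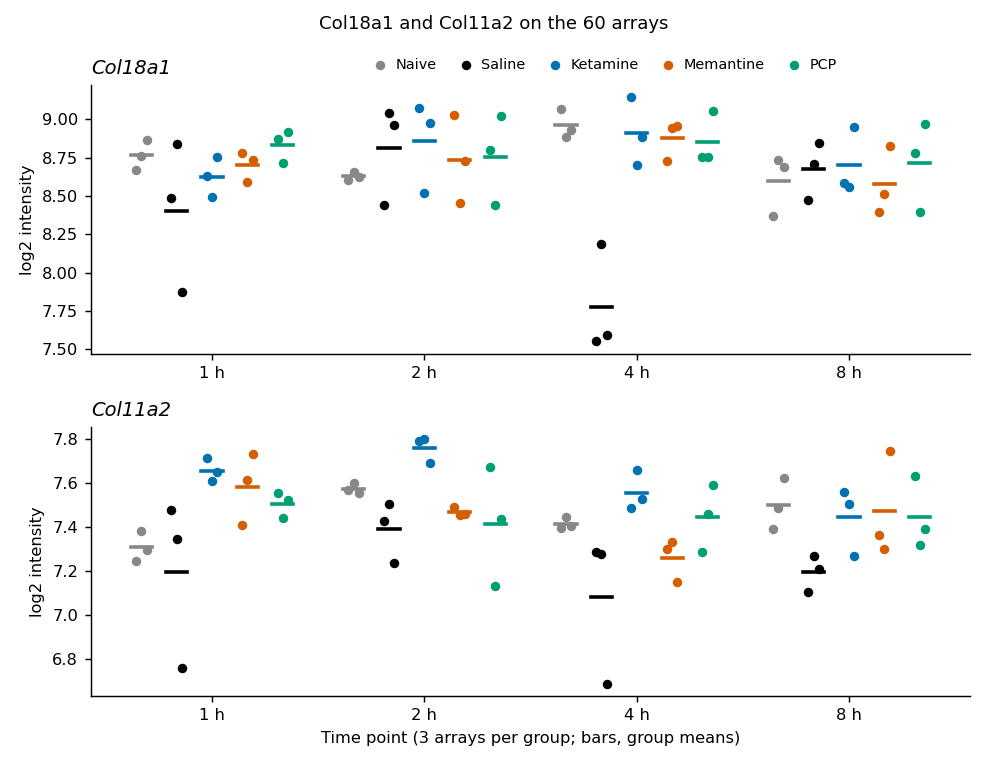
log2 intensity of Col18a1 (top) and Col11a2 (bottom) on each of the 60 arrays, by time in hours, with points for single arrays and bars for the mean of 3 arrays per group. The 3 saline arrays at 4 h lie between 7.55 and 8.19 for Col18a1, under all other arrays of that time, and the lowest values of Col11a2, 6.76 and 6.69, are saline arrays at 1 and 4 h.

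Without the 2 saline 4 h arrays of lowest correlation, the Col18a1 difference was 0.72 with ketamine, 0.69 with memantine and 0.66 with PCP, with adjusted p of 0.407, 0.290 and 0.523, and -0.77 for saline against naive (adjusted p = 0.334). These values rest on 1 saline array, replicate 2, assumed to vary like the other groups. With array position as a term, Col18a1 gave 0.29 with PCP at 4 h (SE 0.34, adjusted p = 0.835) and -0.32 in saline against naive (SE 0.45, adjusted p = 0.847). As the mean over its 3 probes, it gave 0.50, 0.52, 0.61 and -0.59 in the 4 comparisons (adjusted p = 0.268, 0.128, 0.130 and 0.113). Against saline arrays on the same BeadChip, single pairs gave 1.55 for ketamine and 1.498 for PCP at 4 h, both against the 2 saline arrays of lowest correlation, and from -0.26 to 0.75 at the other times (6 pairs), while no memantine array shared a BeadChip with a saline array of its time. The 2 other Col18a1 probes, both dimmer, gave 0.14 and 0.22 with ketamine at 4 h, 0.17 and 0.29 with memantine, 0.30 and 0.46 with PCP, and -0.59 and 0.02 for saline against naive, and neither passed in any comparison. Whether the difference between drug and saline was itself different between the times was not shown: the adjusted p of the drug by time test for Col18a1 was 0.465 for ketamine, 0.189 for memantine and 0.570 for PCP. The like test of saline against naive, added after its values were seen, gave 0.451. None of the 41 genes passed these 4 tests in limma (4, 5, 2 and 5 members with an unadjusted p under 0.05, beside 5.72%, 7.99%, 6.18% and 5.65% of all probes), where 0%, 0.00452%, 0% and 0% of all probes did.

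In the ketamine drug factor, 1 of the 41 genes passed, where 0.0181% of all probes did. It was Col11a2, which encodes a chain of collagen XI, a minor fibrillar collagen best known from cartilage. The ketamine arrays gave 7.71, 7.61 and 7.65 at 1 h, 7.79, 7.80 and 7.69 at 2 h, 7.48, 7.66 and 7.52 at 4 h and 7.56, 7.50 and 7.26 at 8 h. The saline arrays gave 7.48, 7.35 and 6.76 at 1 h, 7.43, 7.50 and 7.23 at 2 h, 7.28, 7.27 and 6.69 at 4 h and 7.10, 7.27 and 7.21 at 8 h. The groups did not overlap at 1, 2 and 4 h, and at 8 h they overlapped by 1 ketamine array. At 1, 2 and 4 h, 8.93%, 10.4% and 9.96% of all probes did not overlap either. The mean difference was 0.39 (SE 0.08, adjusted p = 0.0447), 1.31 times the saline level, and 12 of 12 ketamine arrays exceeded the saline mean of their time.

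The same difference was 0.23 with memantine (SE 0.08, adjusted p = 0.349, 12 of 12 arrays above the saline mean) and 0.24 with PCP (adjusted p = 0.519, 11 of 12), and the naive arrays were also above saline, on 12 of 12 arrays. Against the naive arrays the ketamine difference was 0.16 (adjusted p = 1.00). The call lay close to the threshold: leaving out 1 array at a time, it passed in 4 of 24 cases. In these cases the difference ran from 0.33 to 0.42 and the adjusted p in limma from 0.0316 to 0.143. Without the 3 saline arrays of lowest correlation the difference was 0.29 (adjusted p = 0.256). The second probe of the gene, dimmer, gave 0.07, and the mean of both probes 0.23 (adjusted p = 0.353). In the additive fit with array position the difference was -0.30 (SE 0.38, adjusted p = 0.881).

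**Figure D2:**
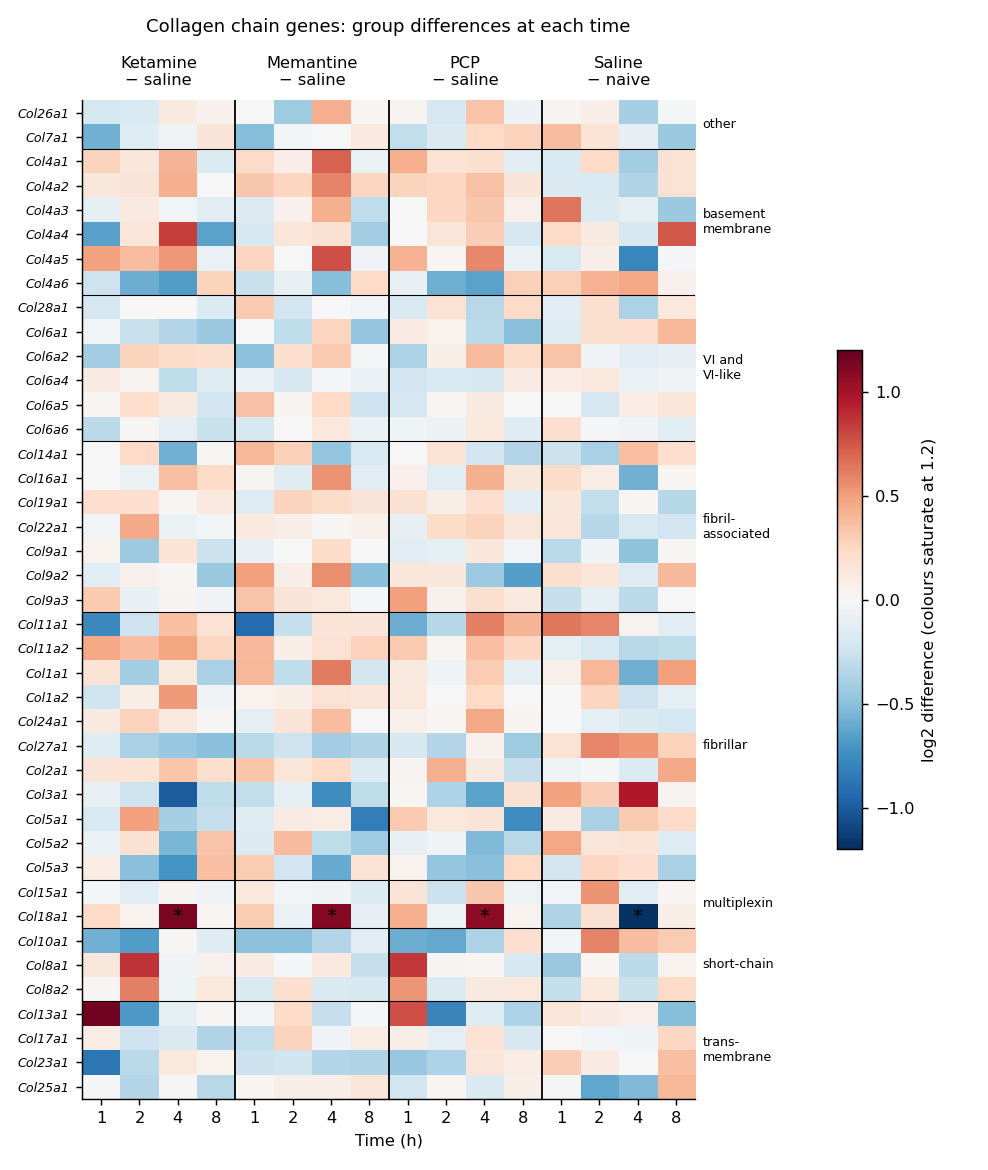
log2 difference of each of the 41 collagen chain genes (rows, by class) in the 4 comparisons at each time in hours (columns), with red for higher and blue for lower in the first-named group. Asterisks mark the 4 differences past the test, all in Col18a1 at 4 h.

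In the remaining comparisons of drugs with saline, 0 of the 41 genes passed in limma. With an unadjusted p under 0.05 there were 6, 4 and 0 members with ketamine at 1, 2 and 8 h, 3, 1 and 2 with memantine, and 2, 0 and 3 with PCP. At that same unadjusted threshold stood from 4.24% to 5.71% of all probes in these 9 comparisons, or about 2 in 41. Past the adjusted threshold, 0%, 0.00452% and 0% of all probes passed with ketamine at those times, 0%, 0.00226% and 0% with memantine, and 0.00226%, 0% and 0% with PCP. The memantine and PCP drug factors gave 9 and 5 members of 41 with an unadjusted p under 0.05, beside 9.40% and 6.99% of all probes. Past the adjusted threshold were 0 members in both, and 0.0543% and 0% of all probes. Saline against naive, averaged over the times, gave 5 members with an unadjusted p under 0.05 (12.2%, and 8.84% of all probes), and 2, 2 and 1 at 1, 2 and 8 h (from 4.08% to 4.36% of all probes). Past the adjusted threshold were 0 members in each, and 0.00226% of all probes for the average and 0% at each of the 3 times. The median difference over the 41 genes was -0.06 in the ketamine factor, 0.00 in the memantine factor and 0.02 in the PCP factor, beside 0.01, 0.00 and 0.01 over all probes. At 4 h it was 0.02, 0.13 and 0.15 with the 3 drugs and -0.14 for saline against naive, beside values from -0.01 to 0.01 over all probes. Above zero at 4 h were 23, 26 and 29 of the 41 genes with ketamine, memantine and PCP, and 14 of 41 in saline against naive. Of all probes, 51.7%, 51.1%, 51.6% and 48.2% were above zero in these 4 comparisons, which share the 3 saline arrays.

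Of the basement membrane network chains, Col4a1 and Col4a2 encode the chains that make the collagen IV of nearly all basement membranes. At 4 h, Col4a1 was 8.69, 9.55 and 8.80 in saline, 9.31, 9.41 and 9.56 in naive, and 9.40, 10.19 and 9.57 with memantine. Col4a2 was 8.93, 8.86 and 8.57 in saline, 9.15, 9.06 and 9.24 in naive, and 8.95, 9.89 and 9.29 with memantine. One memantine array, replicate 2, had the highest level of both genes among all 60 arrays. Memantine minus saline at 4 h was 0.71 for Col4a1 (SE 0.22, adjusted p = 0.0998) and 0.59 for Col4a2 (SE 0.21, adjusted p = 0.147). In the memantine factor Col4a2 gave 0.36 (SE 0.10, adjusted p = 0.271), the smallest p of the 41 genes there, and Col4a1 gave 0.24 (adjusted p = 0.498). With ketamine the factor was 0.16 and 0.18, and with PCP 0.17 and 0.25, for Col4a1 and Col4a2.

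The X-linked Col4a5, a chain of the collagen IV network known from kidney basement membranes, gave 7.18, 7.46 and 6.52 in saline at 4 h and 7.70, 7.64 and 8.15 with memantine. These 2 groups did not overlap, as for 11.7% of all probes, and the difference was 0.78 (SE 0.23, adjusted p = 0.0742). Its naive arrays at 4 h lay at 8.08, 7.75 and 7.67, and saline minus naive was -0.78 (adjusted p = 0.115). Without replicate 2 of saline 4 h, 4 members passed with memantine at 4 h (Col18a1, Col4a1, Col4a5 and Col9a2) and 3 in saline against naive (Col18a1, Col4a5 and Col16a1). That leaves replicates 1 and 3, the 2 arrays of lowest correlation, as the saline arrays at 4 h. With all arrays 1 member passed in each comparison, beside 0.721% and 0.26% of all probes. The shares of all probes without replicate 2 are not given here. Col4a4 and Col4a3, partners of Col4a5, and Col4a6 were dim, above the array median on 15, 5 and 21 arrays. Col4a4 had the second highest difference with ketamine at 4 h (0.83, SE 0.37, adjusted p = 0.419), and Col4a3 the largest for saline against naive at 1 h (0.64, adjusted p = 1.00).

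Col4a1 and Col4a2 followed each other from array to array. Over the 60 arrays Pearson's r was 0.634 and Spearman's rho 0.557, and over deviations from the 20 group means r was 0.624 and rho 0.598. Each had a two-sided permutation p of 1e-05, the smallest that 100000 resamples can give, and an adjusted p of 1e-04 over the 20 tests of 10 relations computed. Leaving out the 2 arrays farthest from the median of Col4a2, r was 0.532 for the values and 0.558 for the deviations. Within single BeadChips of 6 arrays, r was above zero on 9 of 10 for the values and on 8 of 10 for the deviations. Among all 820 pairs of collagen genes this was the highest r of deviations (median 0.01), followed by Col18a1 with Col9a2 (0.597) and Col4a2 with Col6a1 (0.520), and no other pair was above 0.5. Ranked by r with Col4a1 over the 60 arrays, the Col4a2 probe stood 7th of 44235 probes, and 90th over the deviations.

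**Figure D3:**
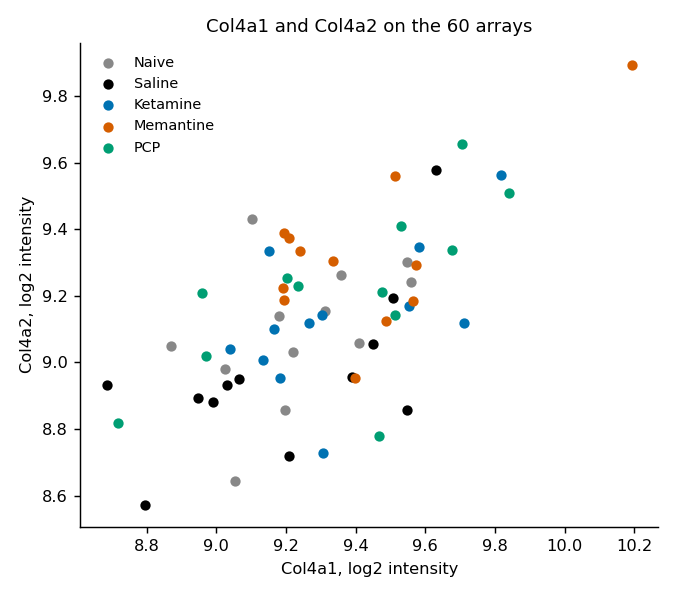
log2 intensity of Col4a2 against that of Col4a1, with 1 point per array (60 arrays) and colours for the 5 treatments. The points rise together (r = 0.634), and the point at the top right, with Col4a1 at 10.19, is replicate 2 of memantine 4 h.

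An endothelial list of 10 genes (Cldn5 and Pecam1 among them) was set against the collagen IV genes likewise. For deviations from the group means r with the list was 0.414 for Col4a1 (adjusted p = 0.00485) and 0.184 for Col4a2 (adjusted p = 0.266), and it fell to 0.262 for Col4a1 without the 2 farthest arrays. Over the values themselves r was 0.19 and 0.10 (adjusted p = 0.254 and 0.653). Within single BeadChips it was above zero on 4 of 10 for Col4a1, so the relation did not hold within batches. For Col18a1 r with this list was -0.08 for the values and 0.09 for the deviations (adjusted p = 0.682 and 0.653).

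Collagen VIII, a short-chain collagen that forms hexagonal networks and is known from the cornea and vessel walls, is built from the products of Col8a1 and Col8a2. Col8a1 was 8.12, 8.03 and 7.83 in the ketamine arrays at 2 h and 6.94, 6.93 and 7.50 in saline, 2 groups that did not overlap. In that comparison 10.4% of all probes did not overlap. With PCP at 1 h it was 7.69, 6.91 and 8.24, and in saline 6.70, 7.23 and 6.36, which overlapped. The differences were 0.87 (SE 0.29, adjusted p = 0.771) and 0.85 (adjusted p = 1.00), the largest of the 41 genes in both comparisons, and its second probe gave 0.79 and 1.03. Col8a2 gave 0.60 with ketamine at 2 h (adjusted p = 0.927). None passed the test.

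The choroid plexus list moved in the same arrays. It held 12 genes, of which 9 were measured, and its defining genes Ttr and Clic6 were above the array median on all 60 arrays. With ketamine at 2 h 9 of 9 were above saline (median 1.07) and with PCP at 1 h also 9 of 9 (median 1.35), with 0 past the test. The list's mean on an array, relative to the naive arrays, ran from -0.66 to 0.24 on 48 arrays and from 0.54 to 1.81 on 12, and relations were computed within each of these sets, split at 0.5 after the values were seen. The 12 arrays were all 3 of ketamine 2 h, 2 each of PCP 1 h and naive 4 h, and 1 each of 5 other groups. Col8a1 was at 7.23 to 8.24 on the 12 (median 7.63) and at 6.19 to 7.71 on the 48 (median 6.95). Its r with the list was 0.873 over the 12 (rho 0.916, adjusted p = 0.00140) and 0.449 over the 48 (rho 0.400, adjusted p = 0.00588). Without the 2 arrays farthest from the list's median, r was 0.874 and 0.376. The sets were too small to repeat this within each BeadChip. Here and for Col18a1 and Col9a3 below, the group means were not removed from the values. Differences between groups therefore enter r and its permutation p.

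In saline against naive at 4 h, Col18a1 and the choroid list were both lower in saline, and the part of the list in the Col18a1 difference was not tested. In saline against naive at 4 h 0 of 9 choroid genes were above zero (median -0.98), and Clic6, an intracellular chloride channel protein, was lower by 1.06 (SE 0.20, adjusted p = 0.0156, with 0.26% of all probes passing). The list's mean lay from -0.61 to -0.51 in saline 4 h and from -0.03 to 1.14 in naive 4 h. At the same time it lay from -0.56 to -0.34 with ketamine, from -0.63 to -0.17 with memantine and from -0.50 to 0.99 with PCP. Over the 12 arrays r of Col18a1 with the list was -0.08 (adjusted p = 0.957), and over the 48 it was 0.362 (rho 0.259, adjusted p = 0.0365), or 0.202 without saline 4 h. For Col9a3, a chain of the fibril-associated collagen IX, r was 0.02 and 0.19 (adjusted p = 1.00 and 0.298). In tissue samples such as these, fewer cells of a type and less RNA per cell cannot be told apart.

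**Figure D4:**
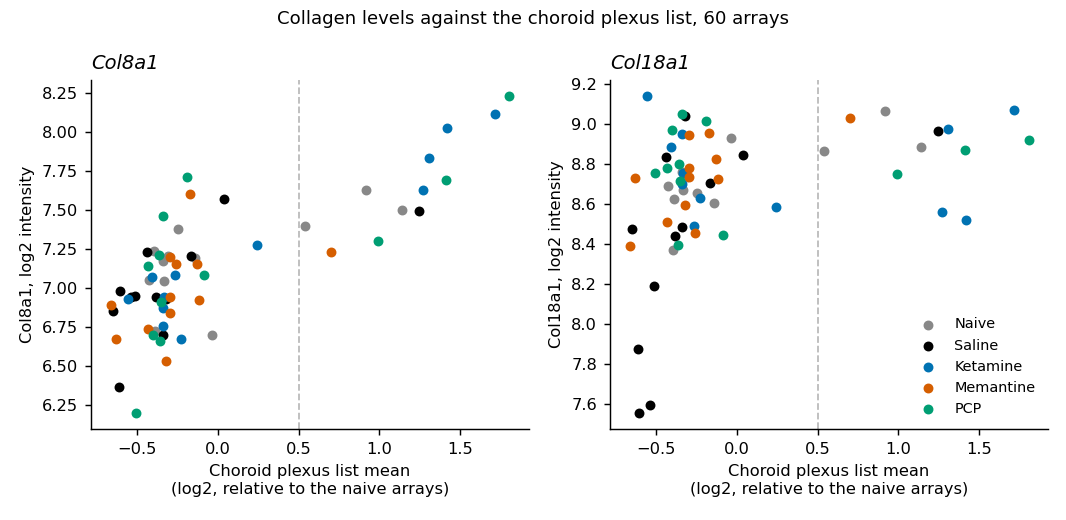
log2 intensity of Col8a1 (left) and Col18a1 (right) against the mean of the 9 choroid plexus genes on the same array (log2, relative to the naive arrays), with 1 point for each of the 60 arrays and a dashed line at 0.5. Col8a1 rises along the 12 arrays right of the line (r = 0.873), and Col18a1 does not (r = -0.08), its lowest points being saline arrays on the left.

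None of the fibrillar chains other than Col11a2 passed. Col3a1 was 7.28, 7.44 and 8.54 in saline at 4 h, 6.80, 7.04 and 6.52 in naive, and 6.93, 6.73 and 6.60 with ketamine, so that the saline arrays lay above both groups. Of all probes, 11.7% did not overlap between naive and saline at 4 h, and 9.96% between ketamine and saline. Ketamine minus saline was -0.998 (SE 0.30, adjusted p = 0.192), the lowest of the 41 genes at that time, and saline minus naive was 0.96 (adjusted p = 0.149). The value of 8.54 came from replicate 3, the array of lowest correlation. The second probe of the gene, dimmer, gave 0.23 with ketamine at 4 h, the opposite sign. With memantine and PCP at 4 h the differences were -0.74 and -0.64 (adjusted p = 0.215 and 0.426). Col27a1, a fibrillar chain of cartilage, gave -0.37 in the ketamine factor (adjusted p = 0.353) and 0.39 in saline against naive (adjusted p = 0.372).

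The collagen I genes varied without a call. Col1a1 lay between 5.99 and 7.40 in the 12 saline arrays (median 6.62), 6.10 and 6.80 in ketamine (median 6.52), 6.44 and 7.12 in memantine (median 6.77) and 6.20 and 7.24 in PCP (median 6.71), and all of these ranges overlapped. Col1a2 gave 0.08, 0.11 and 0.09 in the ketamine, memantine and PCP factors (adjusted p = 0.909, 0.880 and 0.936). Neither passed the test for a relation with the list of 12 leptomeningeal and perivascular fibroblast genes (Dcn, Lum and others). Over the 60 arrays r was 0.300 for Col1a1 (adjusted p = 0.0503) and -6.4e-05 for Col1a2 (adjusted p = 1.00). That of Col3a1 was -0.267 (adjusted p = 0.0864), and -0.351 over the deviations (rho -0.373, adjusted p = 0.0204), where r was above zero on 2 of 10 BeadChips. For the deviations of Col1a1 and Col1a2 r was 0.236 and 0.02 (adjusted p = 0.140 and 0.983).

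Col5a1 and Col5a3, chains of the collagen V that regulates fibril width, were among the genes with the lowest differences: Col5a1 gave -0.83 with memantine and -0.76 with PCP at 8 h (adjusted p = 0.990 and 0.978), and Col5a3 gave -0.72 with ketamine at 4 h (adjusted p = 0.370). Col11a1, which partners Col11a2, had the lowest difference with memantine at 1 h (-0.92, SE 0.31, adjusted p = 0.827) and the highest with PCP at 8 h (0.41, adjusted p = 0.978). Of these, Col11a1 with memantine at 1 h (6.58 to 7.24 against 7.63 to 7.89 in saline), Col5a1 at 8 h with memantine (7.24 to 7.63) and PCP (7.30 to 7.92, against 7.96 to 8.89) and Col5a3 with ketamine at 4 h (6.77 to 6.90 against 7.09 to 8.29) did not overlap with saline. Nor did 9.61%, 10.3%, 8.49% and 9.96% of all probes in these 4 comparisons, in the same order. At 8 h the list of 12 fibroblast genes, none of which passed, also lay mostly below saline, with 2 of 12 above zero for memantine (median -0.54), 2 of 12 for PCP (-0.35) and 1 of 12 for ketamine (-0.19), and 11 of 12 above zero in saline against naive (0.43), and its part in the Col5a1 values was not tested. Col6a1, a chain of collagen VI, was at 9.70 to 11.22 in saline and 9.75 to 10.55 in ketamine, with a factor of -0.27 for ketamine (SE 0.12, adjusted p = 0.448), -0.13 for memantine and -0.17 for PCP. None passed the test.

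Among the transmembrane chains, Col13a1 had the highest difference of any member with ketamine at 1 h, and Col23a1 the lowest. Col13a1, which spans the membrane and is known from the neuromuscular junction, was 7.03, 8.07 and 8.10 with ketamine at 1 h and 6.64, 6.37 and 6.73 in saline. The groups did not overlap, as for 8.93% of all probes, and the difference was 1.15 (SE 0.43, adjusted p = 0.792). At 2 h it was -0.69 (adjusted p = 0.997), and its second probe gave 0.13 at 1 h. The within-group SD of Col13a1, 0.56, was the largest of the 41 genes. Col23a1 gave -0.87 with ketamine at 1 h (SE 0.30, adjusted p = 0.731), with 0.21 from its second probe. Col10a1, the short-chain collagen of growth cartilage, gave -0.67 with ketamine, -0.49 with memantine and -0.61 with PCP at 2 h (adjusted p = 0.927, 1.00 and 0.970). The 48 further probes of the collagen genes that passed the filter gave 0 calls in any comparison.

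Genes that make, bind and degrade collagen were read from lists of the pathway. Of 28 measured genes of collagen biosynthesis and processing (prolyl and lysyl hydroxylases, the chaperone Serpinh1, propeptide proteases and lysyl oxidases), 0 passed in any drug comparison, with 12, 15 and 16 above zero in the ketamine, memantine and PCP factors. The smallest p over the factors belonged to Adamts14, a procollagen protease, at 0.32 with memantine (SE 0.10, adjusted p = 0.307), and P3h1, a prolyl hydroxylase, at 0.31 (adjusted p = 0.319). Of 10 measured collagen receptors, 1 passed: Ddr1, a receptor tyrosine kinase that collagen activates. It was 0.83 lower with memantine than in saline at 4 h (SE 0.20, adjusted p = 0.0320). In that comparison 0.721% of all probes passed, and Ddr1 with memantine was not set against the naive arrays. Of 10 genes of collagen degradation and its inhibitors, 0 passed. Mmp13, a collagenase, gave 0.35 in the memantine factor (adjusted p = 0.348) and Timp2, a metalloproteinase inhibitor, -0.20 in the ketamine factor (adjusted p = 0.526).

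The matrix partners, 15 measured genes of laminins, nidogens, perlecan and others that share basement membranes and matrix with collagens, gave 0 calls, and most lay on 1 side of zero at 4 h. Above zero were 15, 12 and 12 of 15 with ketamine, memantine and PCP (medians 0.27, 0.34 and 0.19) and 0 of 15 in saline against naive (median -0.32). At 1 h the counts against saline were 11, 11 and 12. As for Col18a1, the 4 comparisons at 4 h share the 3 saline arrays. Lama5, a laminin chain, gave 0.33 in the memantine factor (SE 0.10, adjusted p = 0.319) and Hspg2, the heparan sulfate proteoglycan perlecan, 0.35 (SE 0.13, adjusted p = 0.383).

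Markers of cells that could have entered the dissected tissue in varying amounts were listed likewise. At 4 h the 12 fibroblast genes were above zero in 7, 9 and 8 cases with ketamine, memantine and PCP (medians 0.03, 0.38 and 0.21) and in 4 of 12 in saline against naive (median -0.31), and 0 passed. Their mean on an array lay from -0.43 to -0.09 in saline 4 h and from -0.03 to 0.24 in naive 4 h. Of the 10 endothelial genes 4, 4 and 4 were above zero with the 3 drugs, and Tek, the angiopoietin receptor, was 0.77 lower with memantine than in saline (SE 0.19, adjusted p = 0.0363). The 10 mural genes gave 4, 6 and 7 above zero, and Pdgfrb, the receptor that marks pericytes, was 1.10 lower with memantine than in saline (SE 0.25, adjusted p = 0.0271). Among all probes, 0.721% passed with memantine at 4 h, and neither Tek nor Pdgfrb was set against the naive arrays. Of 4 measured ependymal genes 2, 2 and 1 were above zero. The 6 measured genes of cortical projection neurons were above zero in 1, 0 and 2 cases with the drugs and in 6 of 6 in saline against naive (median 0.47), and the 8 of striatal projection neurons in 2, 5 and 3 cases and in 5 of 8. The part of these markers in the collagen values was not tested.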

How the data were processed

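The authors pooled striatal RNA of 2 mice for each array, used Illumina MouseWG-6 v2 BeadChips and exported signals from BeadStudio. The deposited table used here holds linear intensity per probe without normalization. The other deposited table, in log2 units after the authors' background subtraction and quantile step, served as an alternative. Neither holds a detection p, and groups were read from the labels.

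In limma 3.58.1 (R 4.3.3), intensities passed normexp with offset 50, then quantile normalization, then log2. Kept were probes that exceeded the 25th percentile of an array on 3 arrays or more (44236 of 45281). Symbols came from the platform's annotation, where 34885 probes had 1, 18 several and 10378 none. All 41 collagen genes matched RefSeq (GRCm38.p6) by Entrez number.

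One mean per group was fitted over all 60 arrays with lmFit and eBayes (40 residual and 7.24 prior degrees of freedom), and F-tests covered time and drug by time. Precision is limited by the array number. Nothing states that replicates beyond the pools of 2 animals differ in litter or day, so p-values measure the spread between arrays. Relations between arrays used two-sided permutation tests with 100000 resamples, without regard to group or BeadChip. For deviations from the group means these p can be too small. The fit was tested on simulated data of independent normal values, which held no effect of position, BeadChip or outlying arrays.

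The members, the lists and the genes singled out were chosen with earlier results of these data known. Named genes were every member past the threshold, the 3 with the smallest p per averaged, interaction and time comparison, the 2 highest and 2 lowest per drug and time, 8 fixed genes, and of other lists those past the threshold or else the 2 with the smallest p over the drug factors. Col16a1 was also named for its call without 1 array, and markers were named as examples. Alternatives were other background, scaling, filter, variance and control choices, blocks, and each array left out.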

Additional observations from a re-analysis of the deposited data

How the results depend on the processing

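The Col18a1 calls at 4 h and the Col11a2 call were lost under several settings. As the mean over all probes of a gene, Col18a1 gave 0.50, 0.52, 0.61 and -0.59 with ketamine, memantine and PCP and in saline against naive at 4 h (adjusted p = 0.268, 0.128, 0.130 and 0.113), and Col11a2 in the ketamine factor 0.23 (0.353). With naive arrays as control no member passed with ketamine, memantine or PCP at 4 h or in the ketamine factor (0 each), the Col18a1 differences at 4 h turned to -0.051, -0.084 and -0.11, and Col18a1 and Col11a2 in the memantine factor to -0.015 and -0.0029, while Col6a1 there turned to 0.035. With saline and naive arrays together these 4 counts were also 0. A fit of only the arrays compared left the differences as they were (1.13, 1.10, 1.07 and, for Col11a2, 0.39) and gave 0 members in these 4 comparisons, in saline against naive at 4 h and in saline over time. Without the 2 saline 4 h arrays of lowest correlation, and without the 3 (added after seeing the data), the counts were 0 in ketamine and memantine at 4 h, the ketamine factor, saline against naive at 4 h and saline over time. With PCP at 4 h the count stayed 1, but the gene was Col9a2 and not Col18a1, and only 1 saline array was left there (replicate 2, at 9.24 against 7.66 and 7.03 in those left out), assumed to vary like the other groups. Median scaling gave 0 with ketamine and PCP at 4 h, in the ketamine factor and in saline over time but 9 with memantine at 4 h, all higher, where it moved the median of all probes from 0.01 to 0.26 (8385 of 8968 calls higher, against 180 of 319). In the ketamine, PCP and saline against naive comparisons at 4 h it moved that median to 0.18, 0.16 and -0.21. A filter on all arrays gave 2 with memantine at 4 h (Col18a1 and Col4a1). It left 17390 probes to test, which changes the adjustment itself. BeadChip as a block gave 0 with PCP at 4 h, where Col18a1 was 1.11 (adjusted p = 0.0527), and in saline over time. The mean over 1, 2 and 8 h (added) and the trended variance gave 0 in the ketamine factor. Causes were not tested.

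With the recorded array position as a block (added), where it could be fitted, 0 members passed with PCP and in saline against naive at 4 h, and 2 (Col18a1 and Col6a2) in saline over time. The PCP factor turned to -0.44 for Col11a2, -0.31 for Col18a1, -0.0068 for Col1a2, -0.21 for Col4a1 and 0.12 for Col6a1. With treatment, time and position as additive terms (added), 0 members passed in the ketamine factor. Its values turned to -0.30 for Col11a2, -0.54 for Col4a1 and -0.32 for Col4a2, and in the memantine factor to -0.17, -0.26 and -0.062, with -0.027 for Col18a1. In the PCP factor Col11a2, Col1a2, Col4a1 and Col6a1 turned to -0.058, -0.028, -0.032 and 0.047, and in saline against naive Col11a2, Col18a1, Col1a2, Col4a1 and Col4a2 to 0.14, 0.030, 0.0094, 0.40 and 0.18. None of these passed, and standard errors in this fit were 0.16 to 0.38 for Col11a2 against 0.077.

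Replicate numbers did not pair the arrays (mean r of deviations -0.007 for the same number, 0.003 for different numbers). With the replicate block the ketamine factor gave 0 members (Col11a2, adjusted p = 0.0506), and no other count of members changed.

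Leaving out 1 array, members past the test ranged from 0 to 1 in the ketamine factor, with ketamine and PCP at 4 h and in saline over time, from 1 to 4 with memantine at 4 h and from 0 to 3 in saline against naive at 4 h. Ketamine at 4 h lost its call without replicate 3 of saline or replicates 1 or 3 of ketamine, PCP without replicate 3 of saline or any PCP array, and saline against naive without replicate 2 of naive, and saline over time without replicates 2 or 3 of 2 h or 1 or 3 of 4 h. The medians ranged from 0.094 to 0.29 with PCP at 4 h and from 0.029 to 0.18 with memantine at 4 h. Col1a2 ranged from -0.014 (without replicate 3 of ketamine 4 h) to 0.14 in the ketamine factor and from -0.11 to 0.029 in saline against naive. Means over 1, 2 and 8 h turned Col1a2 to -0.066 in the ketamine factor, and Col1a2 and Col4a1 to 0.047 and 0.074 in saline against naive. Without the 2 and the 3 saline arrays these were 0.011 and 0.024 for Col1a2, and 0.086 and 0.11 for Col4a1. Median scaling turned Col6a1 to 0.15 in the memantine factor and -0.020 in saline against naive.

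The median over the members at 4 h, 0.02 with ketamine, 0.13 with memantine, 0.15 with PCP and -0.14 in saline against naive, moved with BeadChip as a block to 0.10 with ketamine, 0.065 with PCP and -0.036 in saline against naive. The filter on all arrays gave 0.12 with ketamine, 0.28 with memantine and -0.22 in saline against naive at 4 h, and 0.061 and 0.10 in the ketamine and PCP factors. Naive arrays as control gave -0.14, -0.039 and -0.015 with the 3 drugs, and both controls together -0.086 with ketamine and 0.012 with memantine. Median scaling gave 0.26 with memantine, 0.23 with PCP and -0.23 in saline against naive. The mean over all probes of a gene gave 0.065 with PCP, leaving out the 2 or 3 saline arrays 0.036, and the mean over 1, 2 and 8 h -0.055 in the PCP factor. Without detection p values, signal over background could not be judged for dim genes.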
